A study of Caenorhabditis elegans with 25 samples.

Results

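Before a chromosome can be copied, its origins have to be licensed. The genes described here encode proteins that do this in the nematode Caenorhabditis elegans, together with a sliding clamp that acts later. All 10 are called licensing genes below. They are the 6 subunits of the replicative helicase MCM2-7, namely mcm-2 (Y17G7B.5), mcm-3 (C25D7.6), mcm-4 (Y39G10AR.14), mcm-5 (R10E4.4), mcm-6 (ZK632.1) and mcm-7 (F32D1.10), the helicase loaders cdt-1 (Y54E10A.15) and cdc-6 (C43E11.10), the origin recognition subunit orc-2 (F59E10.1) and the sliding clamp pcn-1 (W03D2.4). The genes were taken by identifier and not by any measured value, and they make up 10 of the 45461 gene identifiers counted in the 25 libraries. mcm-4, cdt-1 and cdc-6 lie on chromosome I, mcm-2 and orc-2 on II, mcm-5 and mcm-6 on III, pcn-1 on IV and mcm-3 and mcm-7 on V. None lies on the X chromosome, of which males carry fewer copies than hermaphrodites.

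Licensing takes place when the origin recognition complex, CDC6 and CDT1 load the MCM2-7 ring onto DNA before S phase, and the ring is later activated to unwind the template while the clamp PCNA holds the polymerases in place. In the adult germline, mitotic cells at the distal end of the gonad replicate their DNA, cells then pass through a last premeiotic S phase into a long meiotic prophase, and mature sperm do not divide. Oogenic germlines also stock the oocyte with the transcripts and proteins that drive the rapid divisions of the early embryo, whereas sperm lose most of their cytoplasm as they form.

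The study profiled RNA in male and oogenic germlines to set transcription beside histone marking of genes, and in mutant germlines and sperm to ask what the loss of mes-3, a gene for a subunit of the worm Polycomb Repressive Complex 2, does in males and in their offspring. Gonad arms were cut from day 1 adults at the bend near late pachytene and pooled within a library, so these libraries hold mitotic cells and cells up to that stage and not the more proximal ones. Sperm libraries were made from mature sperm released by cutting adult males. Each sample was an rRNA-depleted total RNA library, and the study describes the replicates as biological.

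Male germlines came from N2 wild-type males (n = 2) and from him-8(e1489) males of strain CB1489 (n = 4), in which XO males arise more often, all grown at 20 °C. Oogenic germlines came from N2 XX hermaphrodites grown at 20 °C (n = 3) and from XX fem-2(b245ts) worms of strain DH245 (n = 3), which were kept at 15 °C and shifted to 20 °C for 24 h from the fourth larval stage and make oocytes but no sperm. mes-3 mutant males (n = 3) were mes-3(bn35)/mes-3(bn35) sons of mes-3/hT2-GFP balanced mothers of strain SS818, grown at 20 °C, and so had maternal but no zygotic mes-3 product. Sperm came from such mes-3 males (n = 3) and from him-8 males (n = 3), and the him-8 controls carried e1489 while the label of the mes-3 males gives no him-8 allele. The last 2 groups were germlines of XX offspring that were themselves mes-3/mes-3 and fem-2(b245ts)/fem-2(b245ts), from strain SS1167 at 15 °C. Their mothers were mes-3/hT2-GFP heterozygotes in both groups, and their fathers were either mes-3/mes-3 (M+P- offspring, n = 2) or mes-3/hT2-GFP (M+P+ offspring, n = 2).

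Total gene counts ran from 1078195 to 18617543 per library, and sperm libraries were among the shallower, at 1561329 to 3084442. Spermatogenesis markers summed to 3794 to 4807 counts per 1e+06 gene counts (CPM) in the 6 male germline libraries and to 24.1 to 39.3 CPM in the 6 oogenic ones, whereas oogenesis markers summed to 628 to 1273 and 11969 to 13626 CPM. Muscle markers were present at 128 to 2444 CPM in male germlines, highest in him-8 male 2, at 56.4 to 115 CPM in oogenic germlines and at 2358 to 6589 CPM in the 6 sperm libraries. Male and oogenic libraries mostly carried different tags in their library names, and mes-3 male libraries and all sperm libraries shared 1 tag that the him-8 male libraries did not have. mes-3 transcript itself (F54C1.3) stood at 26.9 to 40.2 CPM in mes-3 males and at 12.98 to 29.8 CPM in him-8 males, so its level did not check the genotype.

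All 10 licensing genes formed 2 tiers. In every one of them, the 10 libraries of oogenic and offspring germlines lay above the 15 libraries of male germlines and sperm, a pattern shared by 27.3% of the genes with a mean of at least 10 CPM. The ratio of the lowest library of the upper tier to the highest of the lower tier ran from 1.30 for orc-2 and 1.73 for mcm-5 to 3.13 for mcm-3 and 3.18 for pcn-1. Summed over the 6 MCM genes, the level was 3532 ± 214 CPM (SD, n = 3) in N2 oogenic germlines, 3630 ± 37.0 (n = 3) in fem-2 oogenic germlines, 3245 ± 128 (n = 2) in M+P- offspring and 3275 ± 42.9 (n = 2) in M+P+ offspring. It was 985 ± 116 CPM (n = 3) in mes-3 males, 625.5 ± 59.8 (n = 3) in mes-3 sperm, 598 ± 135 (n = 4) in him-8 males, 572 ± 181 (n = 2) in N2 males and 303 ± 59.7 (n = 3) in him-8 sperm. In bulk samples of this kind, fewer cells of a type and less RNA per cell cannot be told apart.

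**Figure D1:**
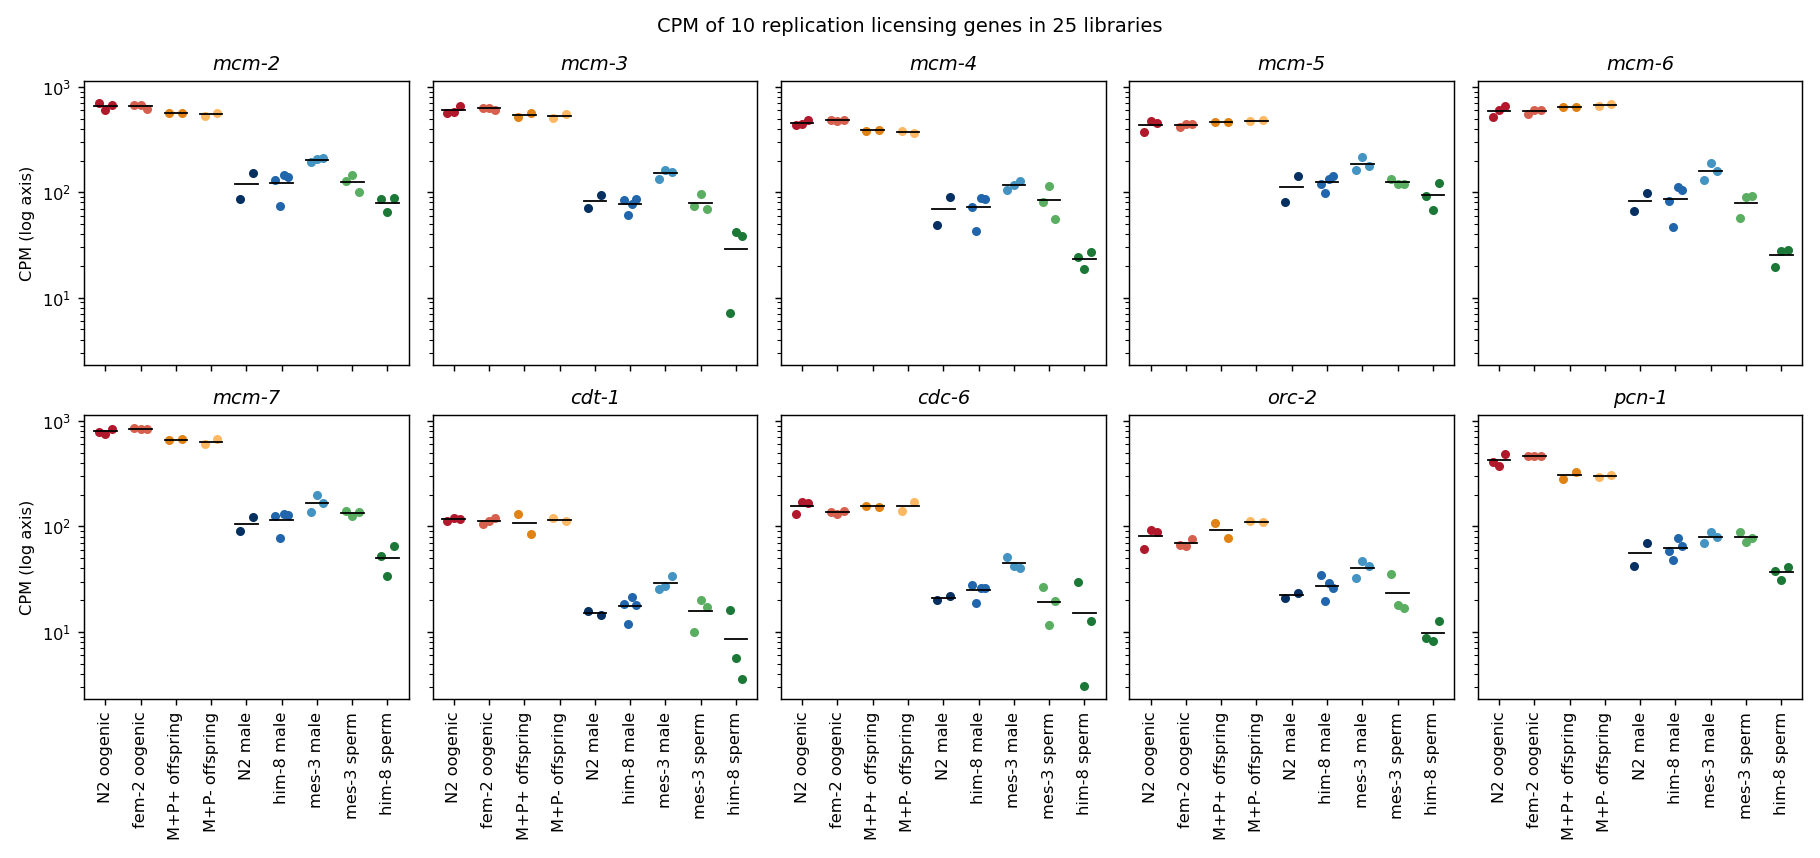
CPM (log axis) of the 10 licensing genes in each of the 25 libraries, by group, with 1 point a library and a bar at the group mean. The upper tier holds oogenic and offspring germlines and the lower tier male germlines and sperm, and the tiers come closest for orc-2, whose lowest oogenic library is at 61.2 CPM and whose highest mes-3 male library is at 47.2 CPM.

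Within the lower tier, the group mean was highest in mes-3 males for 10 of 10 genes, and him-8 sperm had the lowest mean of all 9 groups for 10 of 10. The order between these ends was less sharp. The ranges of N2 males, him-8 males and mes-3 sperm overlapped wherever these groups were neighbours in the order, for every gene. mes-3 males did not overlap the next group down for mcm-2, mcm-3, mcm-5, mcm-6, cdt-1 and cdc-6, but did for mcm-4, mcm-7, orc-2 and pcn-1. him-8 sperm were clear of the next group up for mcm-3, mcm-4, mcm-6, mcm-7, orc-2 and pcn-1, and overlapped it for mcm-2, mcm-5, cdt-1 and cdc-6. How many of all genes share this order of means or these gaps was not counted, so neither is read as particular to the licensing genes.

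Within the upper tier, N2 and fem-2 oogenic germlines overlapped for all 10 genes. Both stood above the offspring groups without overlap for mcm-2, mcm-3, mcm-4, mcm-7 and pcn-1. For mcm-3 the gap was small, from 561.8 CPM in the highest offspring library to 562.1 CPM in the lowest oogenic one. How many of all genes show such a gap was not counted. pcn-1 was at 424 ± 54.5 CPM in N2 and 465 ± 3.54 CPM in fem-2 oogenic germlines (SD, n = 3 each), against 299 ± 8.93 and 306 ± 30.3 CPM in M+P- and M+P+ offspring (n = 2 each). For mcm-5, mcm-6 and orc-2 the order was different and M+P- offspring had the highest mean of all groups, for example 678 ± 19.95 CPM for mcm-6 against 591 ± 74.3 CPM in N2 oogenic germlines. Offspring and oogenic germlines differed in mes-3 genotype, temperature and library tag together, so these cannot be told apart.

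The first comparison asked how male and oogenic germlines differ, and every licensing gene was lower in males. With N2 and him-8 males pooled against N2 and fem-2 hermaphrodites, 10 of 10 genes fell (edgeR's quasi-likelihood test, Benjamini-Hochberg adjusted p under 0.05), where 29.6% of the 8616 genes tested did. The male and oogenic libraries did not overlap in CPM for any of the 10, as was also so, in this direction, for 44.6% of genes with a mean of at least 10 CPM. The median log2 fold change of the licensing genes was -1.93, against 0.25 for all genes tested. Scaling by total counts shifted both by about the same amount, to -2.73 and -0.55, so that the gap between them was -2.18 on either scale, but it turned the split of all genes from 3900 higher and 2550 lower to 2442 and 4746. Fold changes use edgeR's TMM factors and CPM does not, so in this comparison the falls in CPM are larger than the fold changes.

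mcm-7 had the highest level of the MCM genes in oogenic germlines, both in CPM and per length. It was counted at 90.6 and 122 CPM in the 2 N2 male libraries and at 125, 78.4, 130.2 and 127 CPM in the 4 him-8 male libraries. The N2 oogenic libraries held 787, 759.8 and 843 CPM and the fem-2 oogenic libraries 856, 848 and 838 CPM. Every oogenic value was above every male one, and within each sex the strains overlapped. The log2 fold change, males over hermaphrodites, was -2.07 with a standard error of 0.10 (edgeR adjusted p = 7.49e-11).

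mcm-5 is another subunit of the same ring, and its difference was smaller. N2 males held 81.5 and 144 CPM and him-8 males 118.9, 98.4, 135 and 143 CPM, with N2 male 1 the lowest of the 6. N2 oogenic germlines held 374, 475 and 452 CPM and fem-2 oogenic germlines 418, 439.8 and 445 CPM, all above the males. Its log2 fold change was -1.05 ± 0.11 (SE, edgeR adjusted p = 4.04e-07), the smallest of the 6 subunits.

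The remaining subunits lay between these or beyond mcm-7. mcm-3 showed the largest MCM difference, with 61.1, 81.1 and 93.5 CPM as the lowest, median and highest of the 6 male libraries and 562, 619 and 653 CPM in the 6 oogenic ones. Its log2 fold change was -2.15 ± 0.09 (SE, edgeR adjusted p = 1.06e-11). mcm-6 went from 47.04, 90.4 and 111 CPM in males to 514, 599 and 662 CPM in oogenic germlines, and mcm-4 from 43.3, 80.0 and 89.8 to 432, 477 and 489 CPM. The log2 fold changes of these subunits were -1.98 ± 0.15 and -1.90 ± 0.14. mcm-2 had the widest male range, 74.1, 134 and 153 CPM, against 601, 673 and 697 CPM, and a log2 fold change of -1.64 ± 0.14 (SE, edgeR adjusted p = 5.7e-08).

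Both helicase loaders fell in males. cdt-1, whose product escorts MCM2-7 to the origin, was at 11.9, 16.9 and 21.5 CPM (lowest, median, highest) in male and at 106, 116 and 120 CPM in oogenic libraries, a log2 fold change of -1.96 ± 0.11 (SE, edgeR adjusted p = 4.75e-10). cdc-6, the ATPase that works with the origin recognition complex in loading, was at 18.9, 23.8 and 27.6 CPM against 132, 139.6 and 172 CPM, with -1.84 ± 0.10 (edgeR adjusted p = 1.43e-10). Neither loader had a male library near the lowest oogenic one.

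orc-2 encodes a subunit of the complex that marks origins, and it had the smallest difference of the 10. N2 males held 20.9 and 23.4 CPM, him-8 males 34.3, 19.5, 29.2 and 26.1 CPM, N2 oogenic germlines 61.2, 91.9 and 87.8 CPM, and fem-2 oogenic germlines 66.8, 65.2 and 76.7 CPM. Male and oogenic libraries did not overlap, and the log2 fold change was -0.74 ± 0.12 (SE, edgeR adjusted p = 7.75e-05). pcn-1, the sliding clamp gene, was near the other end, next to mcm-3. Its male libraries held 42.5, 61.7 and 76.9 CPM (lowest, median, highest) and its oogenic ones 377, 464 and 484 CPM, a log2 fold change of -2.08 ± 0.12 (edgeR adjusted p = 3.67e-10).

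**Figure D2:**
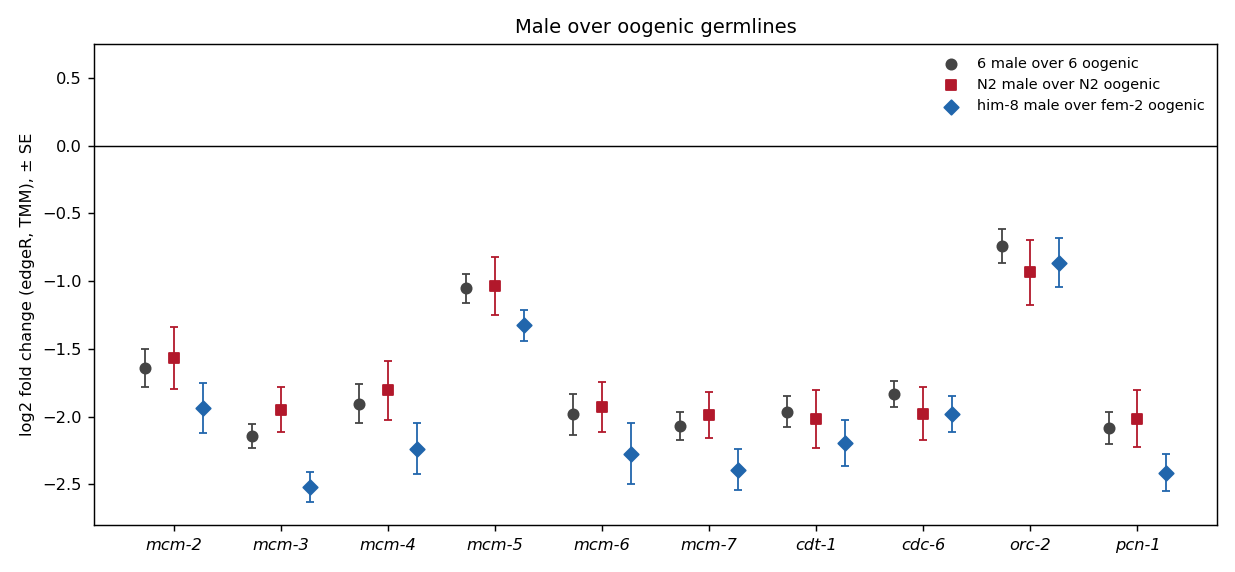
Log2 fold change of the 10 licensing genes, male over oogenic germlines, with standard errors, from the fit of 6 against 6 libraries and from the N2 pair and the him-8 and fem-2 pair alone. All values lie below 0, with orc-2 (-0.74) and mcm-5 (-1.05) nearest to it in the fit of 6 against 6.

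The same genes were lower in both strain pairs taken alone, which share their libraries with the pooled comparison and so add no independent samples. Between N2 males and N2 hermaphrodites all 10 fell, against 22% of 8574 genes tested, with log2 fold changes from -2.02 for cdt-1 to -0.94 for orc-2 and edgeR adjusted p values from 1.81e-05 to 0.00975. Between him-8 males and fem-2 worms all 10 fell, against 30.4% of 9244 genes, with log2 fold changes from -2.52 for mcm-3 to -0.86 for orc-2 and edgeR adjusted p values from 1.67e-07 to 0.00294. orc-2 and mcm-5 were the genes nearest to 0 in each pair.

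Library tag and sex were largely confounded, and 1 tag held both sexes, namely 1 male library (N2) and 2 oogenic ones (N2 and fem-2). Within it, every gene was again lower in the male library, with log2 ratios from -2.86 for cdt-1 to -1.45 for mcm-5, and -1.62 for orc-2. With 1 male library these ratios have no test.

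Per length, pcn-1 was the most abundant of the 10 transcripts in both sexes, at 60.0 ± 12.96 reads per kilobase of transcript per 1e+06 gene counts (RPKM) in male and 444 ± 41.2 RPKM in oogenic germlines (SD, n = 6 each). The order below it differed between the sexes. In oogenic germlines mcm-7 followed at 334 RPKM, then mcm-2, mcm-6 and mcm-3 at 233, 228 and 227 RPKM, and mcm-5 and mcm-4 at 178 and 177 RPKM. In male germlines mcm-5 came next to pcn-1 at 49.2 RPKM, ahead of mcm-7 at 45.7 RPKM and mcm-2 at 42.9 RPKM, while mcm-6, mcm-3 and mcm-4 stood at 33.0, 29.4 and 27.1 RPKM. cdc-6, orc-2 and cdt-1 were the 3 lowest in both, at 13.3, 13.9 and 6.46 RPKM in males and 83.7, 40.7 and 44.6 RPKM in oogenic germlines.

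The MCM2-7 ring holds 1 copy of each subunit, but the transcripts were not present in equal amounts and their proportions moved with sex. mcm-5 made up 19.6 to 25.9% of the per-length MCM signal in the 6 male germline libraries and 11.9 to 14.6% in the 6 oogenic ones, a mean difference of 8.88 percentage points. mcm-7 took 18.5 to 21.6% in males and 23.2 to 25.1% in oogenic germlines, and mcm-3 took 10.9 to 15.3% and 16.1 to 16.8%. These 3 subunits did not overlap between the sexes. mcm-4 (10.5 to 12.6% against 12.6 to 13.3%) barely separated, and mcm-2 (16.8 to 20.1% against 15.9 to 19.1%) and mcm-6 (11.7 to 16.2% against 15.4 to 17.6%) overlapped. The shares were not tested, and the differences keep the same direction when reads are not divided by length, for example 8.39 points for mcm-5.

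The mcm-5 share followed the 2 tiers across the whole series. It was 15.0 to 15.9% in the 4 offspring libraries, 19.03 to 21.04% in mes-3 males, 18.3 to 23.02% in mes-3 sperm and 28.5 to 35.2% in him-8 sperm. mcm-6 had its largest shares in the offspring, at 19.7 to 21.1%, above every oogenic library, and its smallest in him-8 sperm, at 6.84 to 10.97%. The mcm-4 share was also lowest in him-8 sperm, at 7.08 to 8.45%, whereas mcm-2 made up 21.8 to 27.7% of the signal there. The mcm-3 share was 2.43 to 15.7% in him-8 sperm, its low end coming from 14 counts in 1 library.

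**Figure D3:**
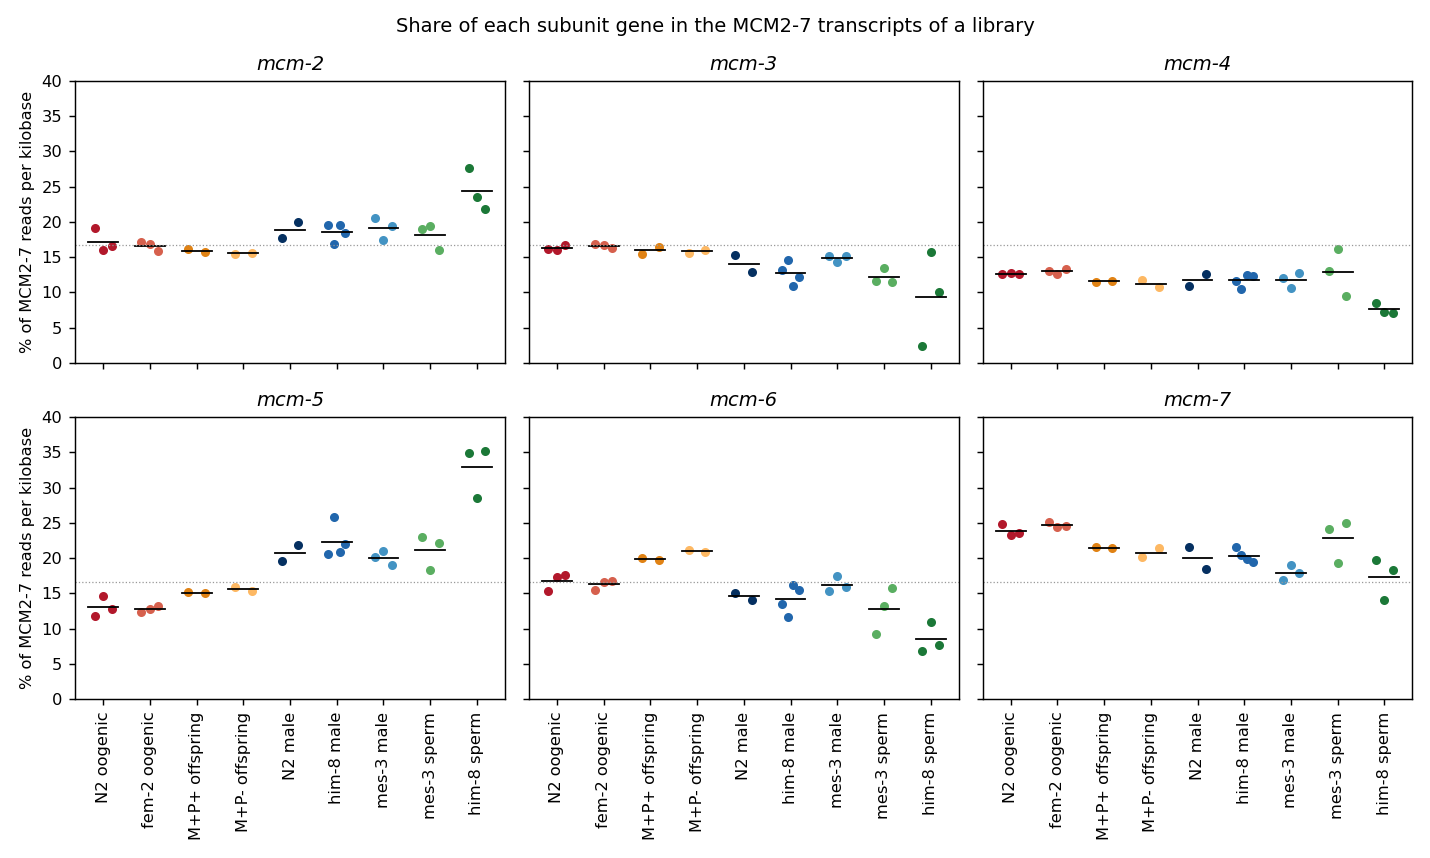
Share of each of the 6 subunits in the per-length MCM2-7 signal (percent), 1 point a library, by group. mcm-5 lies at 11.9 to 14.6% in oogenic germlines, at 19.6 to 25.9% in N2 and him-8 male germlines and at 28.5 to 35.2% in him-8 sperm.

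Set against the mean of the 6 MCM genes per length, orc-2 stood at -1.40 ± 0.27 on the log2 scale in male germlines and at -2.48 ± 0.23 in oogenic germlines (SD, n = 6 each), with no overlap. cdc-6 kept nearly the same ratio in both, -1.44 in males and -1.43 in oogenic germlines, and cdt-1 went from -2.50 to -2.33. pcn-1 stood above the MCM mean, at 0.71 in males and 0.98 in oogenic germlines, with overlapping ranges.

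Related genes outside the set called licensing genes had smaller median changes. The list of licensing partners holds other origin recognition subunits, which are themselves part of the licensing machinery, mcm-10 and regulators of loading. Of the 8 licensing partners tested, 6 fell in males and 2 rose, with a median log2 fold change of -0.70. orc-2, the origin recognition subunit among the licensing genes, lay close to that median, at -0.74. orc-1, another origin recognition subunit, fell by 2.08 on the log2 scale of the fit (SE 0.11). Its median CPM, which carries no TMM factor, was 276 in oogenic and 38.6 in male libraries. mcm-10, a factor that helps to activate the loaded helicase, fell by 1.57 (SE 0.17). orc-5 was called higher at 0.26, yet its CPM was lower in every male library (56.7 to 74.1 against 82.5 to 116), and its sign turned to -0.54 with total counts as the scale, to -0.10 without the count filter and to -0.04 without N2 oogenic 1.

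Of 10 genes for helicase activation and firing, 9 fell and none rose (median log2 fold change -0.79). psf-2, a GINS subunit, fell by 1.87 in the fit (SE 0.54, edgeR adjusted p = 0.00609), and its median CPM was 7.95 in oogenic and 0.963 in male libraries. ctf-4, which links the helicase to the polymerases, fell by 1.77 (SE 0.16). Of 23 replication fork enzymes, 12 fell and 3 rose (median -0.32). Among them, rnr-1 and rnr-2, the large and small subunits of ribonucleotide reductase, went further than any of the 10 licensing genes. rnr-1 fell by 2.30 (SE 0.14) and rnr-2 fell by 2.32 (SE 0.12). rpa-2, for a single-strand binding subunit, rose by 1.18 (SE 0.09), with 207 to 277 CPM in male and 169 to 193 CPM in oogenic libraries. dna-2, a nuclease and helicase, was called higher at 0.40 but turned to -0.40 with total counts as the scale, and its CPM was lower in males.

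The genes that remove the helicase after replication went the other way on the main scale. Of 7 tested, 6 rose and 1 fell, where 45.3% of all genes tested rose, with a median log2 fold change of 0.57, but with total counts as the scale 2 rose and 3 fell and the median was -0.24. cdc-48.2, an unfolding ATPase, and its cofactor ubxn-3 rose on both scales, by 1.19 and 1.06 on the main one. lrr-1, the substrate receptor of the ligase that marks the helicase, fell by 1.4995 (SE 0.10). Of 9 E2F and DREAM factors, which regulate cell cycle genes, 6 fell and 1 rose (median -0.44), and dpl-1 and lin-53 were among those that fell. dpl-1 fell by 1.75 and lin-53 fell by 1.38.

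Several marker lists had lower summed CPM in males, as the licensing genes did, among them that of the distal mitotic zone. Summed over glp-1, fbf-1, fbf-2, sygl-1 and lst-1, all 5 of which were counted in every library, they reached 272 to 401 CPM in male and 967 to 1026 CPM in oogenic germlines, and 3 of the 5 fell while 1 rose. Meiotic prophase markers summed to 754 to 1090 CPM in male and 1226 to 1407 CPM in oogenic libraries. General germline markers summed to 1260 to 1950 and 3542 to 3939 CPM, and intestine markers to 18.4 to 399.6 and 424 to 1432 CPM, none of them overlapping. In the edgeR fit, however, 6 of 12 prophase genes rose in males and 2 fell, with a median log2 fold change of 0.25. Of 6 general germline genes 2 rose and 2 fell (median -0.26), and of 5 intestine genes tested 2 rose and 3 fell. Over all genes tested, 45.3% rose and 29.6% fell. The part of cell composition in the differences of the licensing genes was not tested.

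Of the licensing genes, none passed the test between strains of the same sex. him-8 and N2 males gave log2 fold changes from -0.15 to 0.23, and none of the 10 passed by edgeR or DESeq2 or had an unadjusted p under 0.05, but no gene of 8303 did (0.0%) by edgeR, with 232 genes at an unadjusted p under 0.05 and 11 genes called by DESeq2. fem-2 and N2 oogenic germlines gave -0.19 to 0.15, and again none passed by either tool or had an unadjusted p under 0.05, against 0.165% of 7874 genes tested. These tests do not show that the strains were alike.

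The next comparison asked what the loss of zygotic mes-3 does in male germlines, and the licensing genes stood mostly higher in mes-3 than in him-8 males. Of the 10, mcm-3 and cdc-6 rose past the threshold, where 12.2% of 8930 genes tested rose, and 8 of 10 had no overlap between the mes-3 and him-8 libraries in CPM, against 30.3% of genes with a mean of at least 10 CPM. The median log2 fold change of the 10 was 0.51, against 0.01 for all genes, and it was 0.21 with a trend on transcript length removed, which left the median of all genes at -0.00. With total counts as the scale the medians became 0.70 and 0.21 and the split of all genes went from 1092 higher and 1412 lower to 1710 and 989, with 7 of the 10 called.

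mcm-3 was at 134, 162 and 156 CPM in the 3 mes-3 male libraries and at 84.3, 61.1, 77.9 and 86.6 CPM in the 4 him-8 male libraries. The lowest mes-3 library was well above the highest control, and the log2 fold change was 0.76 ± 0.13 (SE, edgeR adjusted p = 0.00454). cdc-6 was at 51.8, 42.1 and 40.2 CPM against 27.6, 18.9, 25.8 and 26.3 CPM, with 0.66 ± 0.18 (edgeR adjusted p = 0.0249). The call of cdc-6 was the less steady, holding in 7 of 16 alternatives against 15 of 16 for mcm-3.

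The other subunits showed separate ranges without passing. mcm-6 was at 131, 189.9 and 158 CPM in mes-3 males and 82.7, 47.04, 111 and 106 CPM in him-8 males, a log2 fold change of 0.68 ± 0.24 (SE, edgeR adjusted p = 0.0594). mcm-2 was at 192, 208 and 211 CPM against 131, 74.1, 147 and 138 CPM, with 0.53 ± 0.18 (edgeR adjusted p = 0.0553). Both were close to the threshold. mcm-4, mcm-5, mcm-7 and cdt-1 had log2 fold changes of 0.49, 0.38, 0.34 and 0.52 with edgeR adjusted p from 0.0639 to 0.164, again with no overlap in CPM.

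orc-2 and pcn-1 overlapped between the groups. orc-2 gave 0.37 ± 0.21 (SE, edgeR adjusted p = 0.211), and pcn-1 gave 0.15 ± 0.16 (edgeR adjusted p = 0.518), with 69.5, 89.3 and 79.0 CPM in mes-3 males and 58.8, 48.12, 76.9 and 64.6 CPM in him-8 males. Relative to the MCM mean per length, pcn-1 stood at 0.32 to 0.38 on the log2 scale in mes-3 males, under the 0.58 to 0.96 of the 6 male germline libraries of N2 and him-8. That ratio was not tested.

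him-8 male 2 was the lowest of its 4 libraries for 10 of 10 genes and also held the most muscle marker signal, 2444 CPM against 128 to 152 CPM in the other him-8 males and 82.0 to 178 CPM in mes-3 males. Without it, 4 of the 10 genes were called, where 15.6% of genes tested rose. The median log2 fold change of the 10 was then 0.36, against 0.51 with all libraries. The number called was 1 without him-8 male 3 or 4 or any 1 mes-3 male library, where 3.91 to 9.13% rose. Distal mitotic zone markers summed to 473 to 514 CPM in mes-3 males, above every male germline library of N2 and him-8. Meiotic prophase markers were also clear of the controls, at 1164 to 1320 CPM against 754 to 1090 CPM in him-8 males, while general germline markers overlapped. In the edgeR fit, 1 of 5 mitotic zone genes rose and none fell, with a median log2 fold change of 0.27. Of 12 prophase genes 2 rose and 1 fell (median 0.17). The part of these lists in the result was not tested. The mes-3 male libraries carried another library tag than the him-8 males, and strain, tag and genotype cannot be told apart. Of the neighbouring lists, 3 of 8 licensing partners, 1 of 10 activation genes and 2 of 23 fork enzymes rose, while 3 fork enzymes fell. Over all genes tested, 12.2% rose and 15.8% fell.

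In sperm, mes-3 and him-8 libraries were compared in the same way, and 3 of the MCM genes were higher in mes-3. These were mcm-4, mcm-6 and mcm-7, the only calls among the 10, where 3.22% of 8424 genes tested rose, and 7 of 10 had no overlap in CPM, against 23.6% of genes with a mean of at least 10 CPM. The median log2 fold change of the 10 was 0.91, against 0.06 for all genes. With total counts as the scale, the medians were 1.18 and 0.33, 4 of the 10 were called and the split of all genes went from 271 higher and 594 lower to 463 and 270. All 6 sperm libraries carried the same tag.

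mcm-4 was at 81.2, 114 and 56.2 CPM in the 3 mes-3 sperm libraries and at 24.4, 18.8 and 26.9 CPM in the 3 him-8 sperm libraries, a log2 fold change of 1.57 ± 0.36 (SE, edgeR adjusted p = 0.0139). mcm-6 was at 56.4, 90.9 and 91.2 CPM against 19.3, 27.9 and 28.5 CPM, with 1.38 ± 0.35 (edgeR adjusted p = 0.0247). The controls were tight and low for both genes, and the mes-3 libraries were spread but clear of them. mcm-7 was at 139.7, 126 and 137 CPM against 52.9, 34.0 and 64.5 CPM, with 1.15 ± 0.27 (edgeR adjusted p = 0.0148).

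mcm-5 and mcm-2 had smaller values and did not pass. mcm-5 was at 132, 118 and 120.5 CPM in mes-3 sperm and at 93.1, 68.5 and 123 CPM in him-8 sperm, which overlapped, and its log2 fold change was 0.12 (edgeR adjusted p = 0.827). mcm-2 was at 126, 146 and 101.2 CPM against 85.5, 65.5 and 88.5 CPM, with 0.37 (edgeR adjusted p = 0.406). mcm-3 was at 73.3, 96.1 and 69.1 CPM against 7.12, 41.6 and 38.6 CPM, a wide spread in the controls, and 1.17 ± 0.49 did not pass (edgeR adjusted p = 0.165).

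The lowest of these rested on few reads. The 7.12 CPM of mcm-3 in him-8 sperm 1 was 14 counts, with a 95% Wilson interval of 4.24 to 12.0 CPM that covers counting error only, and that interval lay below both other controls. cdc-6 ranged from 6 to 59 counts in him-8 sperm (3.05 to 30.0 CPM) and overlapped mes-3 sperm, as did cdt-1. The Wilson intervals of cdc-6 in him-8 sperm 1 (23.3 to 38.7 CPM) and him-8 sperm 2 (1.40 to 6.65 CPM) did not overlap, so these libraries differed by more than counting error. pcn-1 was at 89.1, 71.1 and 77.5 CPM against 37.6, 31.0 and 41.5 CPM, without overlap, and its 0.84 did not pass (edgeR adjusted p = 0.0992).

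The 3 calls in sperm depended on single libraries. Without mes-3 sperm 2 or without him-8 sperm 2 none of the 10 was called, and without mes-3 sperm 3 the number was 1. In these refits 0.899%, 1.24% and 1.15% of genes tested rose, against 3.22% with all libraries. The median log2 fold change of the 10 was 0.99, 0.84 and 1.01, against 0.91. Distal mitotic zone markers summed to 332 to 366 CPM in mes-3 sperm and 212 to 277 CPM in him-8 sperm, meiotic prophase markers to 526.5 to 644 and 359 to 495 CPM, and spermatogenesis markers to 3769 to 4298 and 5718 to 6237 CPM. All 5 mitotic zone genes were above 0 in every sperm library. General germline markers summed to 868 to 1055 CPM in mes-3 sperm and 495 to 632.2 CPM in him-8 sperm. Intestine markers summed to 786 to 902 and 296 to 725 CPM. The mitotic zone, prophase, general germline and intestine sums were thus all higher in mes-3 sperm without overlap in CPM. In the edgeR fit, 1 of 6 general germline genes rose, and none of 5 mitotic zone, 12 prophase and 7 intestine genes was called. The list medians, in the order just given, were 0.69, 0.69, 0.27 and 0.58 on the log2 scale, against 0.06 for all genes. Muscle markers overlapped, at 2720 to 4766 and 2358 to 6589 CPM, as did the oogenesis, hypodermis and neuron sums. The part of other cells' RNA in these values was not tested.

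Whether the mes-3 difference itself was larger in sperm than in male germlines was tested in 1 fit of the 4 groups, and none of the 10 genes passed by edgeR or DESeq2 (3 had an unadjusted edgeR p under 0.05), against 2.75% of 10129 genes tested. The largest value was for mcm-4, whose difference was 1.07 ± 0.37 greater in sperm on the log2 scale (SE, edgeR adjusted p = 0.135), followed by mcm-7 at 0.81 (edgeR adjusted p = 0.145) and by mcm-6 and pcn-1 at 0.70 each. The him-8 males carried other library tags than the mes-3 males and all sperm libraries, so tag and tissue cannot be told apart in this contrast.

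**Figure D4:**
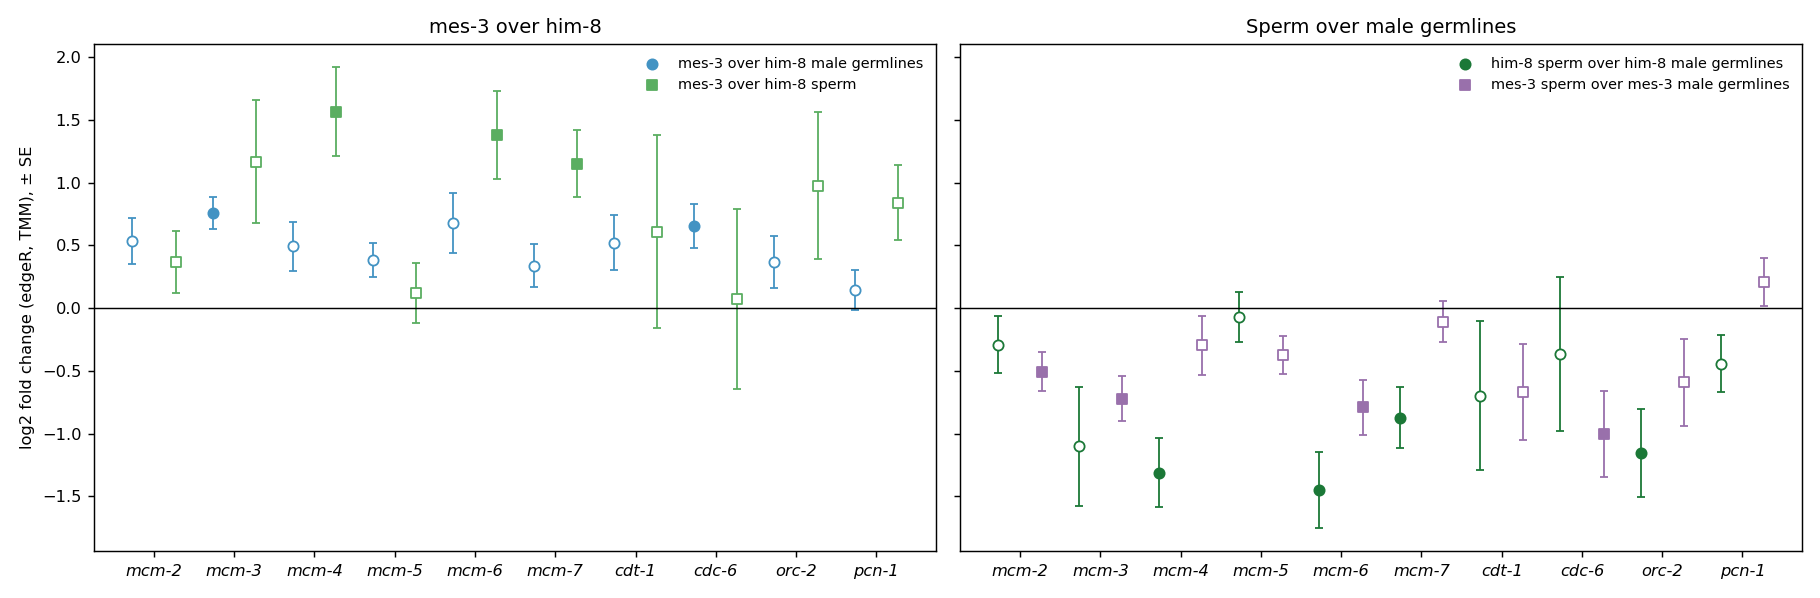
Log2 fold changes of the 10 licensing genes with standard errors, for mes-3 over him-8 in male germlines and in sperm and for sperm over male germlines in him-8 and in mes-3. Most mes-3 values lie above 0 and most sperm values below it, and mcm-4 is at 1.57 for mes-3 over him-8 sperm and at -1.31 for him-8 sperm over him-8 male germlines.

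Sperm were next set against male germlines of the same genotype. In him-8 worms, mcm-4, mcm-6, mcm-7 and orc-2 fell in sperm, 4 of the 10, where 14.4% of 8626 genes tested fell, and 6 of 10 lay below the germline libraries without overlap in CPM, against 35.1% of genes with a mean of at least 10 CPM. The median log2 fold change was -0.79 for the 10 and -0.11 for all genes (-1.11 and -0.42 with total counts, when the split of all genes went from 1401 higher and 1242 lower to 992 and 1934). This comparison shares its 4 him-8 male and 3 him-8 sperm libraries with the mes-3 comparisons above, and its sides differ in library tag.

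mcm-6 fell most, from 82.7, 47.04, 111 and 106 CPM in the him-8 male germlines to the 19.3, 27.9 and 28.5 CPM of sperm given above, a log2 fold change of -1.45 ± 0.30 (SE, edgeR adjusted p = 0.0102). mcm-4 gave -1.31 ± 0.28 (edgeR adjusted p = 0.0106), mcm-7 gave -0.87 ± 0.24 (edgeR adjusted p = 0.0273) and orc-2, at 8.65, 8.12 and 12.6 CPM in sperm, gave -1.16 ± 0.35 (edgeR adjusted p = 0.0368). mcm-5 gave -0.07 (edgeR adjusted p = 0.799), and mcm-2 gave -0.29 (edgeR adjusted p = 0.332). The calls dropped to 2 of 10 without any 1 of him-8 male 1, 3 or 4 or him-8 sperm 2, where 6.96 to 10.7% of genes tested fell. They went up to 6 without him-8 sperm 1, where 14.1% of genes tested fell.

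In mes-3 worms, where germline and sperm libraries shared a tag, 4 of the 10 fell, against 10.4% of 10018 genes tested. They were mcm-2 (-0.51 ± 0.16, SE, edgeR adjusted p = 0.0328), mcm-3 (-0.72 ± 0.18, edgeR adjusted p = 0.0113), mcm-6 (-0.79 ± 0.22, edgeR adjusted p = 0.0206) and cdc-6 (-1.004 ± 0.34, edgeR adjusted p = 0.0476), and mcm-6 was the 1 gene called in both genotypes. Here 6 of 10 lay below the germline libraries without overlap, against 40.8% of genes with a mean of at least 10 CPM, and the medians were -0.55 for the 10 and -0.06 for all genes (-0.75 and -0.26 with total counts, when the split of all genes went from 1900 higher and 1041 lower to 1647 and 1876).

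pcn-1 had nearly equal means in mes-3 worms, 79.3 CPM in germlines and 79.2 CPM in sperm, and a log2 fold change of 0.21 (edgeR adjusted p = 0.441), and mcm-7 and mcm-4 gave -0.11 and -0.30. Without mes-3 male 2 or mes-3 male 3 none of the 10 genes was called, without mes-3 male 1 or mes-3 sperm 3 the number was 2, and without mes-3 sperm 1 it was 5. Over all genes, 1958 to 2975 were called in either direction with a library left out, against 2941 with all libraries. Among the neighbouring lists, 4 of 10 activation genes, 4 of 23 fork enzymes and 3 of 9 E2F and DREAM factors fell and none rose. In him-8 worms 2 of 9 activation genes and 5 of 23 fork enzymes fell, while 3 of 7 unloading genes rose.

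The last comparison asked whether the father's mes-3 genotype changed the germlines of offspring that were themselves mes-3/mes-3, and the licensing genes gave no call. mcm-7 was at 600.1 and 678 CPM in M+P- offspring and at 663 and 670.4 CPM in M+P+ offspring, mcm-5 at 472 and 480.1 against 462 and 467 CPM, and orc-2 at 112 and 109 against 109 and 77.8 CPM. The log2 fold changes of the 10 lay between -0.10 and 0.21, with standard errors of 0.13 to 0.21 and edgeR adjusted p from 0.777 to 0.998. edgeR called no gene of the 11962 tested (0.0%), with 1244 at an unadjusted p under 0.05, and DESeq2 called 134 genes. None of the 10 was among them or had an unadjusted edgeR p under 0.05. With 2 libraries a side, these values do not show that the groups were alike.

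Across all 25 libraries the 10 genes moved in parallel. Pearson's r of log2(CPM + 1) between pairs of them ran from 0.86 for mcm-3 and cdc-6 to 0.99 for mcm-7 and pcn-1 over 45 pairs. The genes whose pattern was most like the mean of the 6 MCM genes, among 7286 with a mean of at least 10 CPM, were rnr-1 (T23G5.1, r = 0.996), ima-2 (F26B1.3, r = 0.995), T21B10.3 (r = 0.991), dut-1 (r = 0.991) and npp-1 (r = 0.990). rnr-1 encodes the large subunit of ribonucleotide reductase and ima-2 an importin alpha. The subunits are part of that mean and their own places in the order are not read. Of the other licensing genes, pcn-1 ranked 68, cdt-1 309, orc-2 437 and cdc-6 674. These correlations are descriptions over points that share groups, depth and library tags, and the points of the 2 tiers lie apart.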

How the data were processed

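The 25 libraries are 9 groups of RNA from germlines and sperm, with 2 to 4 libraries each. According to the study's methods, the authors aligned single-end reads to the WS220 transcriptome with TopHat2 and deposited HTSeq counts per gene for each library (versions and the strand setting are not given in the sources used here). The authors also deposited mean RPKM values per gene for germline types, which were used here only to recover the transcript length of each gene. Their tables of fold changes and adjusted p values were not used. Counts ended in 5 summary lines that were left out. Of all counts with these lines included, reads in no feature made up 3.55 to 18.8% and ambiguous reads 1.59 to 3.11%. No pair of replicates, of 24 compared, agreed within sampling noise.

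CPM is a gene's counts per 1e+06 gene counts, with no further factor, and RPKM divides it by the recovered length in kilobases. Groups were compared with edgeR 4.0.16 (R 4.3.3), using TMM factors, its filterByExpr filter, only the libraries compared, the quasi-likelihood F test and a Benjamini-Hochberg adjusted p under 0.05 over all genes tested. Fold changes are on the TMM scale and the standard error is the fold change divided by the root of F. The alternatives were DESeq2 1.42.0, median-of-ratios factors, total counts, no count filter, all libraries in 1 fit, a replicate block, removal of a length trend, controls of 1 library tag, and leaving out each library. The scripts were tested on simulated counts.

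The 10 genes were taken by identifier, and they and the gene lists were chosen with earlier results of these data known. From each pathway list the text names up to 2 genes per direction with the largest change between male and oogenic germlines among those called and not overlapping in CPM. The search of promoters and proteins for motifs that the design names was not run, since the reference used here holds no sequences, and coordinates are not given because the files' build differs from that of the annotation. mcm-2, mcm-3, mcm-4, mcm-6 and mcm-7 overlap a gene on the other strand by 4 to 73 bases. Group replicates are described as biological by the study, and the labels do not say that they came from separate cultures.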

Additional observations from a re-analysis of the deposited data

Results flagged for a closer look

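The 4 him-8 male, the 6 male and the 6 oogenic germline libraries were examined for values far from the others. Of 48 sets of values, 1 had one. mcm-7 in the 4 him-8 male germline libraries was lowest in him-8 male 2, at 78.398 CPM, with the next library at 125.308 CPM, a gap of 0.905 of the whole range. Chance alone flags about 1 in 20 such sets. The same library was the lowest of its group for 10 of 10 licensing genes and held 2444 CPM of muscle markers. No licensing gene had a mes-3 difference that passed the test between sperm and male germlines, so 0 are listed on that ground.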

How the results depend on the processing

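All 10 licensing genes were called lower in males in the 3 sex comparisons under every alternative with a test, and none was called between strains, between offspring groups or for the mes-3 difference between tissues under any of them. The differences in subunit share between male and oogenic germlines moved by less than the spread when reads were not divided by length, though the shares themselves moved by more for some subunits. Between mes-3 and him-8 males the number called went from 2 to 7 with total counts, 4 with DESeq2 and 1 with all libraries in 1 fit, and was 1 to 4 with a library left out. Over all genes, 1092 of 8930 tested (12.2%) rose in the main fit. With these settings 1710 of 8930 (19.1%), 1095 of 22030 (4.97%) and 830 of 13847 (5.99%) rose, and 3.91 to 15.6% did with a library left out. Between mes-3 and him-8 sperm the number of licensing genes called went from 3 to 6 with all libraries in 1 fit and was 0 to 3 with a library left out. Over all genes, the number that rose went from 271 of 8424 (3.22%) to 1152 of 13847 (8.32%) with all libraries in 1 fit. It was 0.899 to 3.35% of genes tested with a library left out. Between sperm and germline it was 4 in him-8 worms, and 2 to 6 with a library left out, and 4 in mes-3 worms, where it was 2 with median-of-ratios factors, 1 with the length trend removed and 0 to 5 with a library left out. The cause of these shifts was not tested.

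With the replicate number as a block, the number called was 1 for mes-3 males, 1 for mes-3 sperm, 0 for him-8 sperm against germline and 2 for mes-3 sperm against germline, and it stayed at 10 or 0 in every other comparison. Over all genes, the block moved the calls from 2504 to 1609, from 865 to 375, from 2643 to 1067 and from 2941 to 2473 in these 4 comparisons, and from 0 to 543 between offspring groups. Deviations of same-numbered libraries correlated at -0.58 to 0.211, and no comparison with 3 or more pairs had all of them above 0.1, so the numbers were not taken as pairs.

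Among the named genes, signs turned for values of licensing genes that were not called, and for orc-5 and dna-2. Total counts also turned the median of the unloading genes between the sexes from 0.57 to -0.24. pcn-1 in mes-3 males was -0.0097 against the him-8 libraries of tag C. In mes-3 sperm, mcm-5 was -0.0022 and cdc-6 -0.0261 with all libraries in 1 fit, and -0.0837 and -0.0405 with the length trend removed, and leaving out a library gave -0.0322 to 0.2733 for mcm-5 and -0.3998 to 1.0694 for cdc-6. In him-8 sperm against germline, leaving out a library gave -0.2939 to 0.0582 for mcm-5 and -1.3897 to 0.072 for cdc-6. In mes-3 sperm against germline, mcm-7 was 0.0693 with the length trend removed and -0.2217 to 0.0037 with a library left out. Between the sexes, orc-5 was -0.5436 with total counts, -0.099 without the count filter and -0.0362 to 0.2373 with a library left out, and dna-2 was -0.3985 with total counts. The lowest count of a licensing gene was 6, for cdc-6 in him-8 sperm 2.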
